A study of Rattus norvegicus with 24 samples.

Results

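Aldh1a1 and Akr7a3 encode cytosolic enzymes that clear reactive aldehydes, and both were read on 24 two-colour cDNA arrays of rat kidney. They were found as the probes whose platform gene symbol is Aldh1a1 or Akr7a3. These are 2 of the 1313 genes with a symbol and a value, and 2 of 1561 probes with a value. Each gene is listed at 2 probe IDs, and values stood at 1 of them (ID 1839 for Aldh1a1, ID 150 for Akr7a3), on all 24 arrays. They were chosen by measured values of these data, Akr7a3 on its ratio between diets in strain 13 and Aldh1a1 on its ratio between diets in strain SS. Those 2 ratios are therefore given as descriptions, with no test.

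The arrays compare 4 kinds of RNA taken after 2 weeks: strain 13 and strain SS, each on low salt (LS) and on high salt (HS). SS is the Dahl salt-sensitive rat, and strain 13 is an SS rat that carries chromosome 13 of another strain, which is background from the study and not in the labels. Both strains thus share the SS background outside that chromosome. The labels give no age, sex or number of animals, and they name whole kidney where the series title names the renal medulla. Ratios give no level, so the tissue could not be checked against its markers. Each of the 4 comparisons (HS over LS in strain 13, HS over LS in SS, 13 over SS on LS, 13 over SS on HS) has 3 replicates, each hybridised as a forward and a dye-swap array. No label states whether the replicates are different animals. The p-values therefore reflect only the spread among these RNA pairs, which may be technical.

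Arrays held 726 to 1402 probes with a value (median 1202.5), and the number of arrays limits the precision. All values are the deposited log ratios, whose log base is not given in the sources used here, so no fold is stated. That ratios run as HS over LS and as 13 over SS is the likely reading, and it is not settled. The 13 titles that name both channels, read with the labelled dyes, put HS or strain 13 in channel 1, but only 1 of them is a diet array. The difference of both diet ratios and the difference of both strain ratios estimate one quantity, so they were correlated across probes, which are not independent replicates. Over the 1294 probes with a mean in all comparisons the correlation was 0.503 as labelled, and -0.179, 0.137 or 0.222 when a diet group, a strain group or both were turned. Over the 1006 probes with all 12 values, a set taken up after the first correlation had been seen, these were 0.647, -0.234, 0.17 and 0.285. Turning every sign at once would leave that check the same. Strain is missing from 5 of the 6 titles of the SS diet comparison, which were placed there from knowledge of the study. The other one begins as strain 13 titles do but names SS in both channels.

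Aldh1a1, a cytosolic aldehyde dehydrogenase, oxidises retinaldehyde to retinoic acid and also removes aldehydes formed by lipid peroxidation. Akr7a3, the rat aflatoxin aldehyde reductase of the aldo-keto reductase family, reduces dialdehydes and other reactive carbonyls with NADPH and is known as an enzyme that chemoprotective antioxidants induce in liver. One enzyme thus oxidises aldehydes to acids and the other reduces them to alcohols. Aldh1a1 lies on chromosome 1 and Akr7a3 on chromosome 5 in the RefSeq annotation of GRCr8, so neither is on the substituted chromosome.

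The promoters are shown because the genes had different patterns over the same arrays. These are the 250 bases before the RefSeq start of each gene, from assembly GRCr8, plus strand, 5′ to 3′, at chr1:227537370-227537619 for Aldh1a1 and chr5:156876471-156876720 for Akr7a3. Capitals mark matches to the motifs searched.
Aldh1a1: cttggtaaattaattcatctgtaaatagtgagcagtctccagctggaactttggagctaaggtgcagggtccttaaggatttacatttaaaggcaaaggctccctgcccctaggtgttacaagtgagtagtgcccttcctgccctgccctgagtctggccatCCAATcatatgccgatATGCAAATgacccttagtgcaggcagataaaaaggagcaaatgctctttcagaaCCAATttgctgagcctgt
Akr7a3: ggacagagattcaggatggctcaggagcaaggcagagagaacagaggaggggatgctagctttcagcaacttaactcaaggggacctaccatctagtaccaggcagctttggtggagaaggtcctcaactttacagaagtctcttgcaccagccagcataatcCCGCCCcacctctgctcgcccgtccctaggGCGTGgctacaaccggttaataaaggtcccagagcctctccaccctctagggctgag

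Both strands were searched for 6 motifs, which were chosen after the sequences had been seen: CCAAT, ATGCAAAT (the octamer), GGGCGG (a GC box core), GCGTG (the core of the xenobiotic response element), TATAA and TGACNNNGC (the core of the antioxidant response element). The Aldh1a1 window held CCAAT at 2 places, 88 and 18 bases before the start, and the octamer once, 72 bases before it. Of 33469 rat promoter windows of this length, 34.0% held CCAAT and 1.56% the octamer. The Akr7a3 window held the GC box core on the minus strand, read as CCGCCC, 87 bases before the start, and GCGTG 57 bases before it. These are in 30.5% and 25.9% of windows. Neither window held TATAA or TGACNNNGC, found in 23.97% and 10.1% of windows, which says only that these letters are not in these 250 bases. The GC content was 46.4% for Aldh1a1 and 55.6% for Akr7a3, against a median of 51.2%. A match is a description of the sequence, and no binding was measured here.

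Aldh1a1 was lower on HS than on LS in SS rats and higher in strain 13 than in SS on HS, while its ratios in the other comparisons lay around 0. In the SS diet comparison the forward arrays of replicates 1 to 3 had log ratios of -0.16, -0.11 and -0.22, and the dye-swap arrays had -0.36, -0.33 and -0.41. All 6 arrays lay below 0, and the dye-swap array was the lower one in every replicate. The replicate means were -0.26, -0.22 and -0.315, which gives -0.27 ± 0.05 (SD, n = 3). This ratio is one of those for which the gene was chosen. It was lower than all but 6.87% of the 1310 probes. In that comparison 2.82% of probes passed an adjusted p of 0.05 (limma, Benjamini-Hochberg), and 19.5% of the probes with 3 values had all replicates below 0.

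In strain 13 the same diet comparison gave Aldh1a1 log ratios of -0.03, 0.01 and -0.06 on the forward arrays. The dye-swap arrays gave -0.13, 0.00 and 0.27. The arrays lay on both sides of 0, with the dye swap of replicate 3 apart from the rest. The replicate means were -0.08, 0.005 and 0.105, or 0.01 ± 0.09 (SD, n = 3; 95% interval -0.125 to 0.145). Intervals and p-values use 1 spread per probe, estimated by limma over the comparisons fitted together, not the SD beside them. The test did not pass (limma adjusted p = 0.978), in a comparison where 0% of 1287 probes passed it and 9.25% had an unadjusted p below 0.05. The interval does not hold the SS mean, but it covers the strain 13 ratio alone and is no test of the difference between strains.

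Between strains on HS, the Aldh1a1 log ratios were 0.01, 0.25 and 0.27 on forward arrays and 0.43, 0.25 and 0.23 on dye-swap arrays. All 6 arrays lay above 0, the forward array of replicate 1 only just. Averaging the dyes gave 0.22, 0.25 and 0.25, so Aldh1a1 was higher in strain 13 by 0.24 ± 0.02 (SD, n = 3; 95% interval 0.105 to 0.375; limma adjusted p = 0.0422), in 3 of 3 replicates. Of 1350 probes, 6.00% passed in this comparison, 3.63% as higher in strain 13, and 28.3% of those with 3 values had all replicates above 0. Its replicate SD was larger than that of only 1.19% of probes. Both this and the SS diet comparison contain SS RNA on HS, and in replicate 3 the titles of both name it alike. The HS result is therefore no independent support for the SS diet ratio. The call was lost without any 1 of the 3 replicates (adjusted p from 0.128 to 0.215, ratio 0.24 to 0.25) and in 6 of the other 11 alternatives tried. One of these has the replicate number as a block, which gave an adjusted p of 0.0622 and left 40 probes called of the 81 called without it. Another fitted this comparison alone, without the spread of the others, and gave an adjusted p of 0.134 (limma).

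On LS the strain ratios of Aldh1a1 were -0.36, 0.18 and 0.12 on forward arrays and 0.11, -0.07 and -0.07 on dye-swap arrays. They lay on both sides of 0, and the lowest came from the array with the fewest values of all (726 probes). The replicate means of -0.125, 0.055 and 0.025 average to -0.02 ± 0.10 (SD, n = 3; 95% interval -0.15 to 0.12; limma adjusted p = 0.906). In this comparison 0% of 1229 probes passed and 21.8% had an unadjusted p below 0.05. Without the sparse array the mean was 0.06, on the other side of 0.

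**Figure D1:**
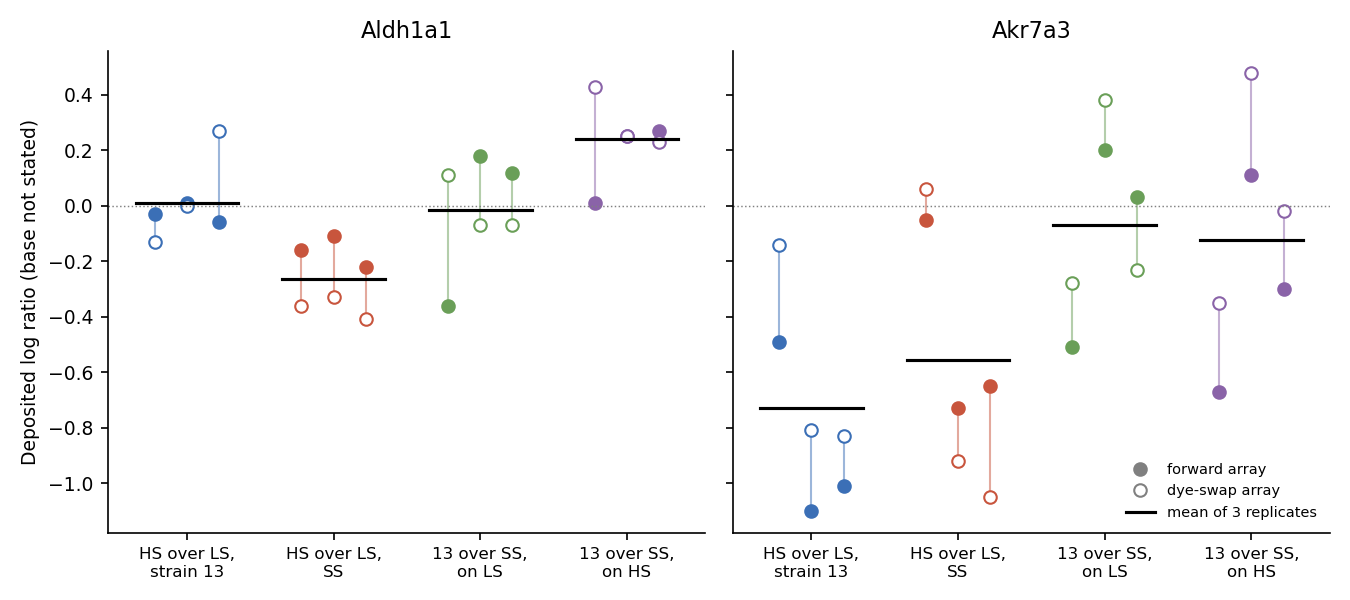
Deposited log ratio (log base not stated) of Aldh1a1 and Akr7a3 on each of the 24 arrays, by comparison; filled points are forward arrays, open points dye-swap arrays, a thin line joins both arrays of a replicate, replicates 1 to 3 run left to right, and the black bar is the mean of 3 replicates. Aldh1a1 lies below 0 on all 6 SS diet arrays and above 0 on all 6 strain arrays on HS, while Akr7a3 lies below 0 on 11 of the 12 diet arrays and on both sides of 0 on the strain arrays.

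Akr7a3 had low HS over LS ratios in both strains and a wide spread between replicates. In strain 13 the forward arrays of replicates 1 to 3 had log ratios of -0.49, -1.10 and -1.01, and the dye-swap arrays had -0.14, -0.81 and -0.83. All 6 arrays lay below 0, and the forward array was the lower one in each replicate. The replicate means of -0.315, -0.955 and -0.92 give -0.73 ± 0.36 (SD, n = 3), the lowest mean of the 1287 probes. This is the other ratio for which a gene was chosen, so it carries no test. In this comparison 15.8% of probes with 3 values had all replicates below 0.

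The SS diet comparison was not used to choose Akr7a3. Its log ratios there were -0.05, -0.73 and -0.65 on forward arrays and 0.06, -0.92 and -1.05 on dye-swap arrays. Both arrays of replicate 1 lay near 0, and the other 4 arrays lay at -0.65 or lower. The replicate means were 0.005, -0.825 and -0.85, or -0.56 ± 0.49 (SD, n = 3; 95% interval -0.994 to -0.12), rank 8 from the lowest of 1310 probes. That interval uses the spread over all 4 comparisons, not this SD. The test did not pass after adjustment (limma unadjusted p = 0.0169, adjusted p = 0.165), where 19.5% of all probes had an unadjusted p below 0.05 and 7.79% also a ratio below 0. Without replicate 1, the one near 0, the mean was -0.84 and the adjusted p 0.0486 (limma, n = 2). That fit called 57 of all probes, against 37 in the main fit. Without replicate 2 or 3 the ratio was -0.42 or -0.41, with adjusted p of 0.589 and 0.499, and 0 probes were called. The replicate SD was larger than that of 96.3% of probes, and fitted alone this comparison gave Akr7a3 an adjusted p of 0.318 (limma).

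Between strains Akr7a3 differed in sign from replicate to replicate. On LS the forward arrays had log ratios of -0.51, 0.20 and 0.03 and the dye-swap arrays -0.28, 0.38 and -0.23. Replicate 1 lay below 0 and replicate 2 above 0 with both dyes. The replicate means of -0.395, 0.29 and -0.10 average to -0.07 ± 0.34 (SD, n = 3; 95% interval -0.505 to 0.369; limma adjusted p = 0.866). On HS the forward arrays had -0.67, 0.11 and -0.30 and the dye-swap arrays -0.35, 0.48 and -0.02. The replicate means of -0.51, 0.295 and -0.16 average to -0.13 ± 0.40 (SD, n = 3; 95% interval -0.562 to 0.312; limma adjusted p = 0.756). Neither strain ratio exceeded the spread between replicates, and both intervals still hold differences as large as 0.3 in either direction. Forward and dye-swap arrays of a replicate differed by 0.18 to 0.26 on LS and by 0.28 to 0.37 on HS, less than the distance between replicates 1 and 2.

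The diet change can be set between strains in 2 ways, from the diet arrays (strain 13 minus SS) and from the strain arrays (HS minus LS). For Aldh1a1 the diet arrays gave 0.18, 0.225 and 0.42 in replicates 1 to 3 (0.28 ± 0.13, SD) and the strain arrays gave 0.345, 0.195 and 0.225 (0.26 ± 0.08, SD). All 6 values lay above 0. For Akr7a3 the diet arrays gave -0.32, -0.13 and -0.07 (-0.17 ± 0.13, SD) and the strain arrays -0.115, 0.005 and -0.06 (-0.06 ± 0.06, SD), with 5 of 6 values below 0. The diet arrays hold the ratios for which the genes were chosen, and the strain arrays may share RNAs with them, so these values are a description with no test. The titles of strain arrays carry texts that may stand for a batch. The one just before the bracketed number is the same on LS and HS in replicate 3, where the values were 0.225 for Aldh1a1 and -0.06 for Akr7a3. Another text, just ahead of it, differs on every strain array, also in replicate 3, and was not used. In replicates 1 and 2 the text just before the bracket also differs between diets, so on those strain arrays a batch and the diet cannot be told apart.

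**Figure D2:**
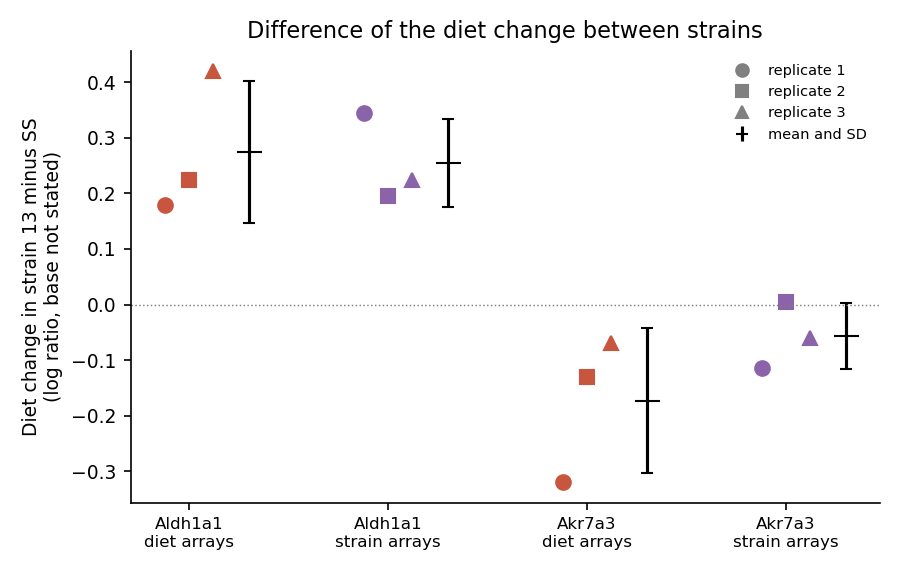
Diet change in strain 13 minus that in SS (log ratio, base not stated) for Aldh1a1 and Akr7a3, from diet arrays (strain 13 ratio minus SS ratio) and from strain arrays (ratio on HS minus ratio on LS); symbols are replicates 1 to 3 and the bar shows mean and SD. The 6 Aldh1a1 values run from 0.18 to 0.42, and the Akr7a3 values from -0.32 to 0.005.

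Over the 12 RNA pairs the log ratios of Aldh1a1 and Akr7a3 had a Pearson r of 0.33 and a Spearman rho of 0.29, and r was 0.11 without the 2 pairs in which Akr7a3 lay farthest from its median. The pairs share RNAs between comparisons and within a comparison, so this and the correlations that follow are descriptions, with no p.

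Few other aldehyde dehydrogenases were measured, and their ratios lay on both sides of 0. With 4 genes and the shares given here, a count of 0 passing says little about the family. Of 19 listed members 5 were measured. Of the 4 beside Aldh1a1, 0 passed the test (limma) in any comparison, where 0%, 2.82%, 0% and 6.00% of all probes did, in the order diet in strain 13, diet in SS, strain on LS and strain on HS. In the same order 1, 0, 0 and 1 of the 4 had an unadjusted p below 0.05, against 9.25%, 19.5%, 21.8% and 23.1% of all probes. Aldh1a2, another enzyme that makes retinoic acid, had 0.13 ± 0.17 between diets in SS and -0.03 ± 0.12 between strains on HS. Aldh3a2, the fatty aldehyde dehydrogenase, had -0.18 ± 0.08 and 0.16 ± 0.10 in the same comparisons, on the same sides of 0 as Aldh1a1 (limma adjusted p = 0.293 and 0.291). Aldh2, the mitochondrial enzyme that clears acetaldehyde, had -0.20 ± 0.07 between diets in strain 13 (limma adjusted p = 0.472). It had -0.10 ± 0.11 between diets in SS and -0.18 ± 0.16 between strains on HS (adjusted p = 0.504 and 0.19). Aldh1l1, the formyltetrahydrofolate dehydrogenase, had 0.00 ± 0.16 between diets in SS and -0.16 ± 0.19 between strains on HS. The median of the 5 measured members, Aldh1a1 included, was -0.10 between diets in SS, where the median of all probes was -0.01.

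Among aldo-keto, alcohol and carbonyl reductases 5 of 24 listed genes were measured, and of the 4 beside Akr7a3 0 passed the test (limma) in any comparison, against 2.82% of all probes between diets in SS and 6.00% between strains on HS. An unadjusted p below 0.05 was reached by 1, 1, 0 and 2 of these 4 in the same order, in a background of 9.25%, 19.5%, 21.8% and 23.1% of all probes. Their medians, Akr7a3 included, were -0.11, -0.06, -0.04 and -0.13, where those of all probes were 0.01, -0.01, 0.03 and 0.02. Beside Akr7a3, the lowest HS over LS ratios were those of Sord, sorbitol dehydrogenase, at -0.43 ± 0.04 in strain 13 and -0.43 ± 0.32 in SS (limma unadjusted p = 0.012 and 0.0123, adjusted p = 0.417 and 0.138). Akr1a1, an aldehyde reductase of the same superfamily as Akr7a3, had -0.11 ± 0.09 and 0.07 ± 0.09. Akr1b1, aldose reductase, which makes the osmolyte sorbitol in the medulla, had 0.13 ± 0.17 and -0.04 ± 0.26, and 0.32 ± 0.34 between strains on HS (limma adjusted p = 0.157). Maob, a monoamine oxidase that forms aldehydes from amines, had -0.24 ± 0.23 there (adjusted p = 0.183), and it was measured with Hagh, a glyoxalase, out of 7 genes listed. Their medians ran from -0.09 to -0.04 over the 4 comparisons.

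**Figure D3:**
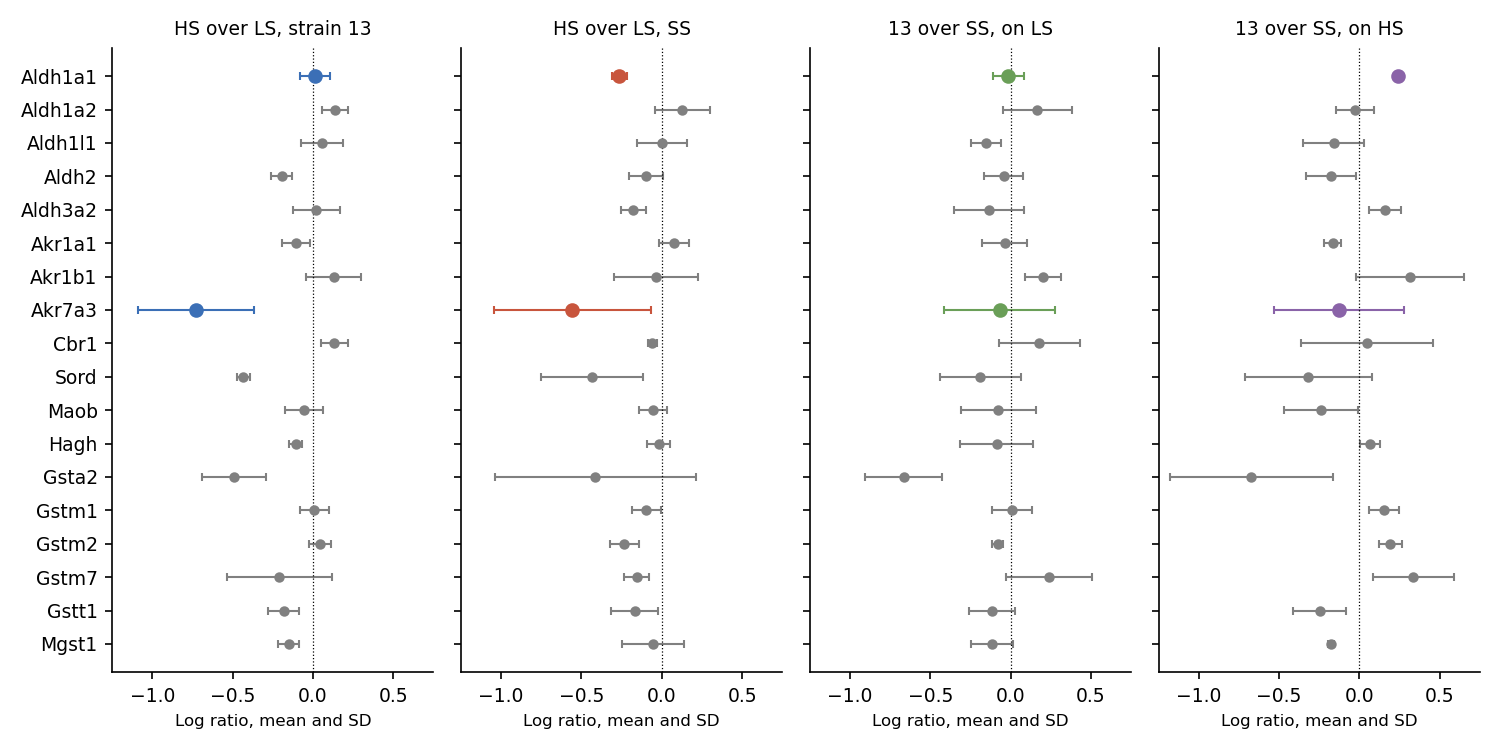
Mean log ratio (base not stated) and SD over replicates of the measured aldehyde dehydrogenases, reductases, amine oxidase, glyoxalase and glutathione transferases, in the 4 comparisons, with Aldh1a1 and Akr7a3 coloured. Akr7a3 is the lowest of these genes in both diet comparisons, and Aldh1a1 has a narrow SD on HS (0.02).

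In bulk tissue, fewer cells of a type and less RNA per cell cannot be told apart, so the markers of kidney cell types are given beside these genes. In all, 8 marker lists were set against each gene, and those described and plotted were picked from these after the correlations had been seen. The 3 thick ascending limb and distal markers with a value in every pair (Slc12a1, Umod and Egf, of 8 listed) averaged -0.295 to -0.21 over the SS diet replicates and 0.172 to 0.237 over the strain replicates on HS. They lay on the same sides of 0 as Aldh1a1, and over the 12 pairs the marker mean and Aldh1a1 had a Pearson r of 0.90 (Spearman 0.81; 0.84 without the 2 farthest pairs). The 5 fibroblast and matrix markers (Col1a1, Col3a1, Vim, Dcn and Pdgfra, of 8 listed) averaged 0.208 to 0.66 and -0.515 to -0.115 in these comparisons, with an r of -0.83. Between diets in strain 13 they averaged 0.154 to 0.311, where Aldh1a1 had a mean of 0.01. On LS they averaged -0.068 to 0.029. Fn1, listed but without a value in every pair, had -0.29 between diets in SS, on the same side of 0 as Aldh1a1. Between strains on HS all 6 measured, Fn1 included, lay below 0. The 4 collecting duct markers (Aqp3, Fxyd4, Scnn1a and Slc4a1, of 10 listed) had an r of 0.79. They averaged -0.125 to -0.0912 between diets in SS and 0.271 to 0.424 between strains on HS. Between strains on LS they averaged 0.116 to 0.294, all above 0, where Aldh1a1 had a mean of -0.015. Between diets in strain 13 they averaged -0.035 to 0.155. Smooth muscle markers (Acta2 and Tagln) had an r of -0.80 and Kdr, the single endothelial marker measured, 0.77. Once each comparison's mean was taken off, the correlations with the first 3 lists were -0.10, -0.07 and -0.28, so they rest on differences between the comparisons. Their part in the Aldh1a1 result was not tested.

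The proximal tubule markers are given beside Akr7a3 replicate by replicate. The 11 markers with a value in every pair (of 28 listed, Lrp2, Gatm, Kap and Cyp2e1 among them) averaged 0.2345, -0.302 and -0.287 in the SS diet replicates, where Akr7a3 was near 0 in the first and low in the others. Between strains on HS they averaged -0.7295, -0.0582 and -0.39, in the same order as Akr7a3. On LS they averaged -0.386, -0.1205 and -0.4195, where Akr7a3 had -0.395, 0.29 and -0.10, so replicate 2 was the highest in both but replicates 1 and 3 stood in opposite order. In strain 13 the marker mean stayed between -0.288 and -0.234 while Akr7a3 ran from -0.955 to -0.315. Not all markers lay on the side of their mean. Of 12 measured between diets, 3 had means above 0 in SS and 2 in strain 13. Between strains 1 of 12 lay above 0 on LS and 1 of 11 on HS. With each comparison's mean taken off, Akr7a3 and the marker mean had an r of 0.88, while over the values themselves r was 0.41. For Aldh1a1 these were 0.18 and -0.37. The 5 fibroblast and matrix markers with a value in every pair ran the other way from Akr7a3. Their r was -0.83 after the comparison means were taken off and -0.71 before. The part of these cell types in the Akr7a3 ratios was not tested.

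**Figure D4:**
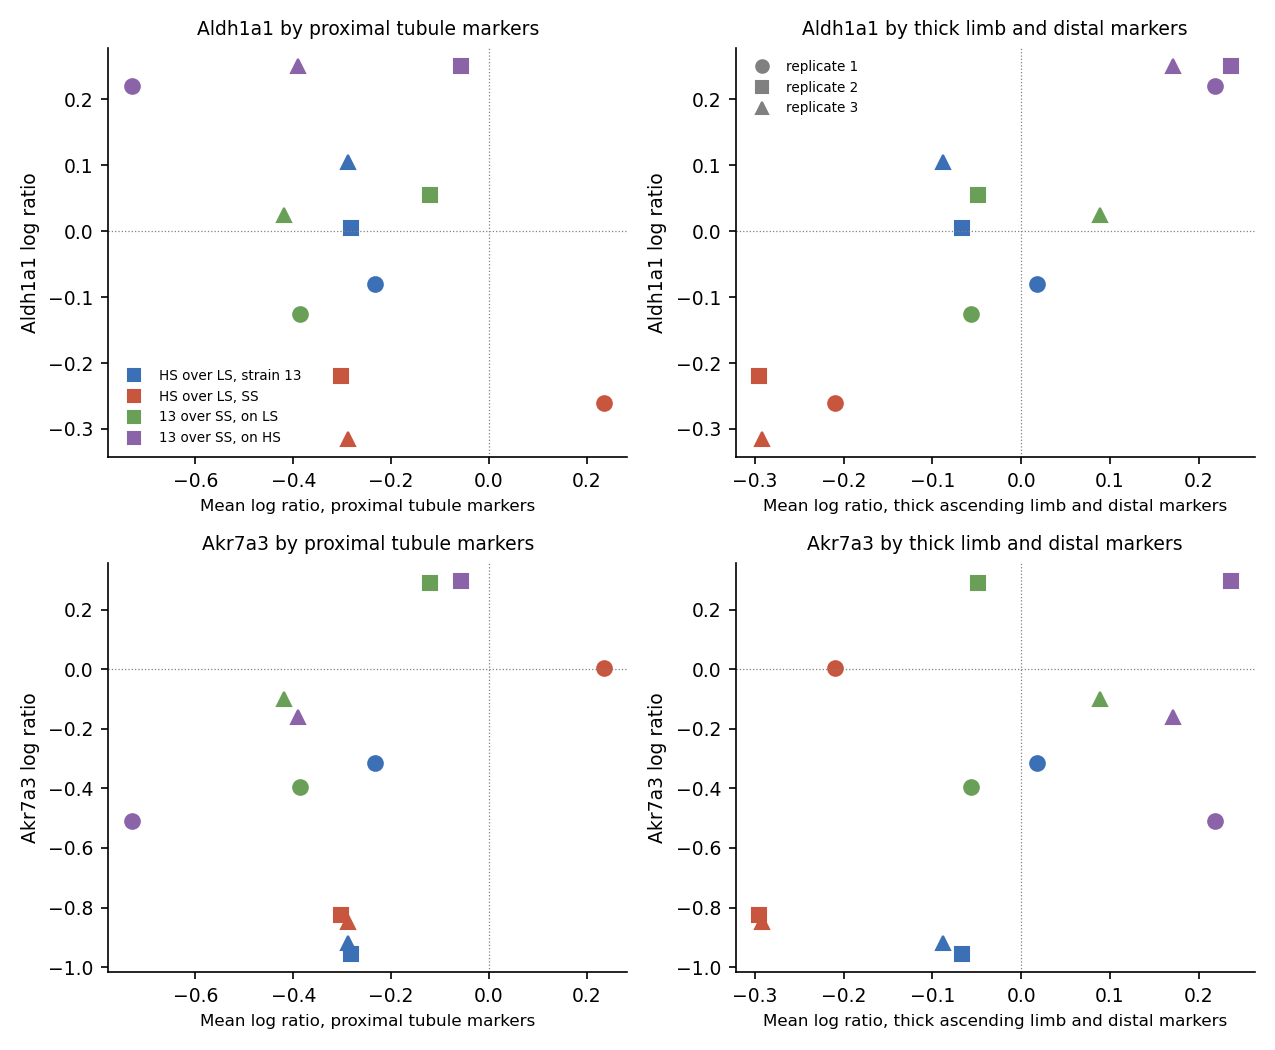
Log ratio of Aldh1a1 (top) and Akr7a3 (bottom) against the mean log ratio of 11 proximal tubule markers (left) and of 3 thick ascending limb and distal markers (right) in the 12 RNA pairs; colours are the comparisons and symbols the replicates. Aldh1a1 against the thick limb and distal markers has r = 0.90 for the values and -0.10 for deviations from the comparison means. Akr7a3 against the proximal tubule markers has r = 0.41 for the values and 0.88 for the deviations. The order of the 3 replicates is the same in Akr7a3 and those markers only between strains on HS.

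The genes whose log ratios were most like those of Aldh1a1 over the 12 pairs, among 861 probes with 1 symbol and a value in every pair, were Got1, a cytosolic aspartate transaminase, with an r of 0.96, Acsl1, which activates long-chain fatty acids, with 0.91, and Aqp3, a water channel, Tor1aip1 and Pcsk6, a proprotein convertase, with 0.90, 0.90 and 0.89. Got1 had means of -0.33 between diets in SS, 0.39 between strains on HS, and 0.01 and 0.03 in the other comparisons. With the comparison means taken off, its r was 0.62, and that of Acsl1 was -0.19. The most opposite were Spp1 (osteopontin), Ceacam4 and Timp1, an inhibitor of metalloproteinases, each with an r of -0.91, -0.91 and -0.90. The median r over the 861 probes was 0.01, and 5% of them had an r above 0.76.

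For Akr7a3 the most like were Mif, a cytokine with tautomerase activity, with an r of 0.90, Oplah, the oxoprolinase of the glutathione cycle, with 0.84, Hspe1, a mitochondrial chaperonin, with 0.81, and Bckdhb and Fah, enzymes of branched-chain amino acid and tyrosine breakdown, with 0.80 each. Their means between diets in strain 13 ran from -0.33 for Fah to -0.06 for Bckdhb, against -0.73 for Akr7a3. Akr7a3 was chosen on that ratio and had the lowest mean of all probes there, so no gene could have reached its size. With the comparison means taken off, r stayed between 0.684 and 0.925. The most opposite were Fcgr2a, an immunoglobulin receptor of leukocytes, C1qb, a complement subunit made by macrophages, and Txnrd2, a mitochondrial thioredoxin reductase, with r of -0.89, -0.87 and -0.86. Cd53, the single leukocyte marker with a value in every pair (of 7 listed), had an r of -0.84 with Akr7a3. Lyz2, a listed leukocyte marker without a value in every pair, had -0.125 between diets in SS. Between strains it had -0.52 on LS and -1.51 on HS. These lie on the same side of 0 as the Akr7a3 means. The median r over the 861 probes was 0.04, and 5% had an r above 0.64.

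**Figure D5:**
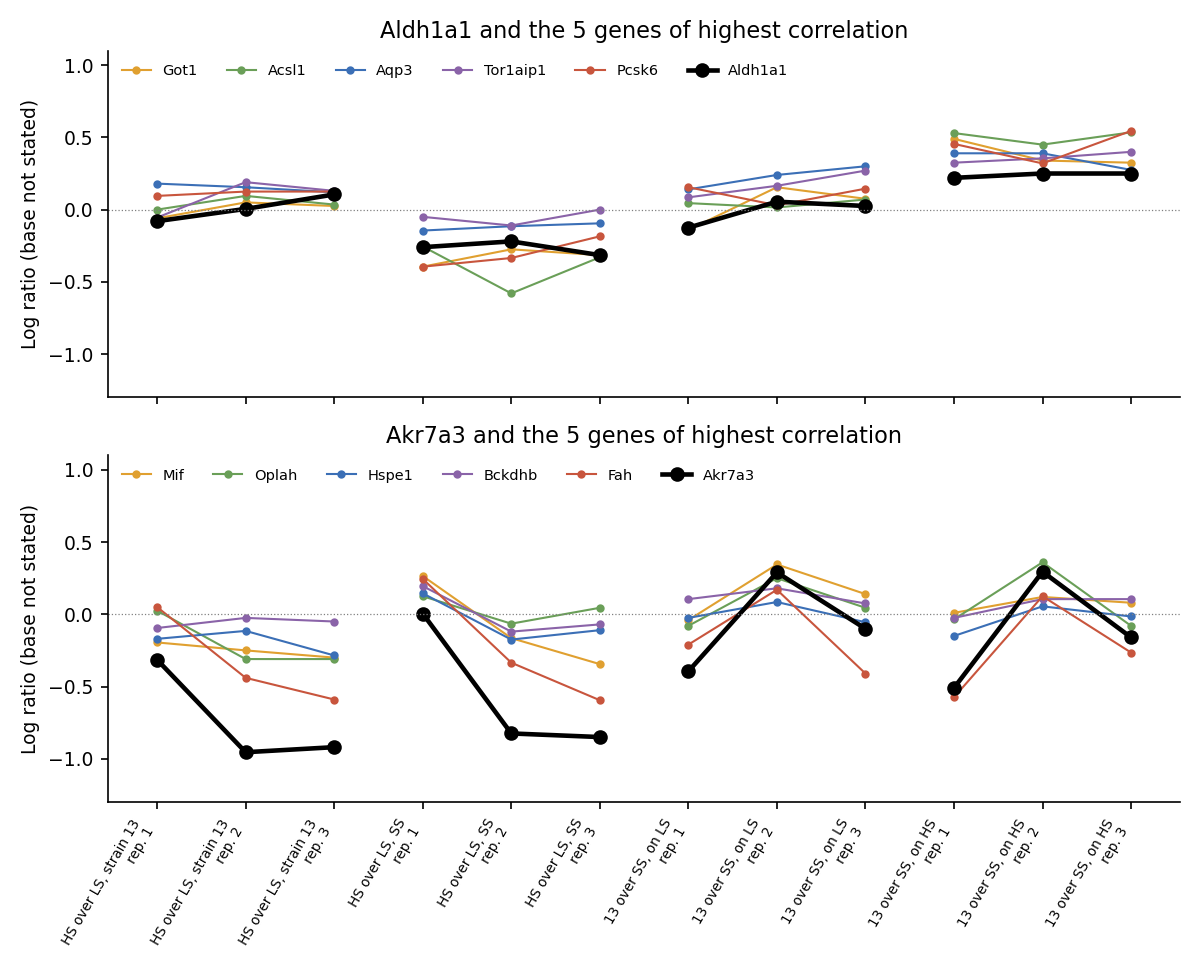
Log ratio (base not stated) of Aldh1a1 (top, black) and Akr7a3 (bottom, black) with the 5 genes of highest Pearson correlation over the 12 RNA pairs; lines join the 3 replicates of a comparison only to show which points belong to a gene, and replicates have no order. The genes with Aldh1a1 separate the comparisons, and those with Akr7a3 vary between replicates within a comparison.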

How the data were processed

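Gene expression was measured on two-colour cDNA arrays, and the deposited values are log ratios of both channels. The sources used here do not state the background correction, spot filters, normalization or log base. Array means lay within 0.0049 of 0 and medians within 0.04, and values were used as deposited. Names came from the platform's annotation, with symbols brought up to date through gene identifiers in RefSeq (GRCr8): of 1561 probes with a value, 1311 had 1 updated symbol, 5 a platform symbol, 22 several and 223 none. Where a gene had several probes, the one with most values was used.

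Forward and dye-swap arrays were averaged per replicate, giving 12 RNA pairs. limma 3.58.1 in R 4.3.3 (lmFit, eBayes) fitted 4 group means to all pairs, each tested against 0 (two-sided) where at least 2 replicates had a value, with Benjamini-Hochberg adjustment over all probes tested. The script was tested on simulated data. One strain 13 diet title without a number was taken as replicate 1. Titles of replicate 3 name the same SS RNAs in the SS diet and strain comparisons, and the fit without a replicate block was kept as the one set down at the outset. Deviations of same-numbered pairs correlated at 0.154 to 0.25 between both diet comparisons and at -0.665 to -0.29 between the SS diet and the strain comparison on HS.

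The members, lists and tests were chosen with earlier results of these data known. From the gene lists, genes with an unadjusted p below 0.05 were eligible for naming (at most 4 per list and comparison), and others were named to describe a family after their values were seen. For likeness, the 5 highest and 3 lowest correlations were taken. Alternatives were single replicates, dyes or arrays left out, a replicate block, scaling, centring, a filter on missing values and separate fits.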

Additional observations from a re-analysis of the deposited data

Results flagged for a closer look

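Aldh1a1 had a log ratio of 0.27 on the dye-swap array of replicate 3 between diets in strain 13, apart from the other 5 arrays, which lay between -0.13 and 0.01. Without that array the mean was -0.045 (limma adjusted p = 0.752) rather than 0.01. In all, 8 sets of 6 arrays were examined this way and 1 was flagged. The flag may be chance, and the rate of chance flags was not estimated.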

How the results depend on the processing

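Akr7a3 kept its direction under every alternative in both diet comparisons, at -0.938 to -0.593 in strain 13 and -0.838 to -0.41 in SS, where it passed the test only without replicate 1 (without 1 replicate -0.838 to -0.41). Aldh1a1 stayed below 0 between diets in SS (-0.367 to -0.163; -0.163 on forward and -0.367 on dye-swap arrays alone). Between strains on HS it stayed above 0 (0.177 to 0.303) and passed in 5 of 14 alternatives (adjusted p 0.0215 to 0.297, limma). It did not pass on forward arrays alone (0.177), without 1 replicate (0.235 to 0.25) or with a replicate block (0.24, limma adjusted p = 0.0622). It also did not pass with arrays at equal spread (0.209) or centred on the median (0.225), or fitted alone (0.24, adjusted p = 0.134). Nor did it pass without the strain 13 array that has no number (0.24, adjusted p = 0.0566). That array belongs to the strain 13 diet comparison, so only the shared spread and the adjustment changed. Why the call was lost in the other fits was not tested. Deviations of same-numbered pairs correlated from -0.665 to 0.43 across probes over the 18 pairs, with all 3 above 0.1 between both diet comparisons and all 3 below 0 between the SS diet and the strain comparison on HS. No other tested ratio of these genes was called without the replicate block, so it had no other call to end. The random block for the title text, added after seeing the data, had an estimated correlation of -0.483 and gave 0.243. That fit is 1 of the 5 passes and has the lowest adjusted p (0.0215, limma). It called 234 probes between strains on HS, against 81 in the main fit.

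Ratios near 0 changed sign. Aldh1a1 in strain 13 was -0.027 on forward arrays, -0.037 to 0.055 without 1 replicate, -0.007 without the unnumbered array and -0.045 without the array on which it stood apart, an alternative also added after seeing the data. On LS it was -0.05 to 0.04 without 1 replicate, 0.014 at equal spread and 0.063 without the sparse array. Akr7a3 between strains was -0.247 to 0.095 on LS and -0.335 to 0.068 on HS without 1 replicate, and 0.037 on HS on dye-swap arrays. Counts of all probes called ranged from 0 to 15 (strain 13 diet), 0 to 118 (SS diet), 0 to 70 (strain on LS) and 0 to 411 (strain on HS).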

Other observations

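Glutathione transferases conjugate the products of lipid peroxidation, and 6 of 20 listed members were measured. None passed the test in the 4 comparisons (limma), and 1, 1, 1 and 6 had an unadjusted p below 0.05 between diets in strain 13, between diets in SS, and between strains on LS and on HS, where 9.25%, 19.5%, 21.8% and 23.1% of all probes did. Gsta2, an alpha-class transferase, had -0.67 ± 0.24 between strains on LS and -0.67 ± 0.51 on HS (limma adjusted p = 0.118 and 0.0922). Gstm2, a mu-class transferase, had -0.24 ± 0.09 between diets in SS and 0.19 ± 0.07 between strains on HS (adjusted p = 0.0583 and 0.0918), on the same sides of 0 as Aldh1a1.

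Among 26 listed antioxidant enzymes and NRF2 targets, 13 or 14 were measured per comparison and 0 passed, where 0%, 2.82%, 0% and 6.00% of all probes did (limma). In the same order 1, 2, 4 and 2 had an unadjusted p below 0.05, against 9.25%, 19.5%, 21.8% and 23.1% of all probes. Gclm, the modifier subunit of the enzyme that starts glutathione synthesis, had -0.38 ± 0.26, -0.31 ± 0.36, -0.53 ± 0.30 and -0.37 ± 0.28 in the 4 comparisons (limma adjusted p from 0.11 to 0.48). Hmox1, heme oxygenase 1, had 0.49 ± 0.21 between diets in SS (adjusted p = 0.0617), and Nqo1, a quinone reductase, -0.06 ± 0.07. Of 22 genes of retinoid transport and signalling, 3 were measured between diets in SS and between strains on HS. In these 0 passed, against 2.82% and 6.00% of all probes, and 1 had an unadjusted p below 0.05 (limma), against 19.5% and 23.1%. That was Rbp4, the plasma retinol carrier, with -0.51 ± 0.35 and -0.41 ± 0.18 (adjusted p = 0.0931 and 0.125). Rara and Rxra, retinoid receptors, had 0.04 and 0.11 between diets in SS, on the other side of 0, and -0.15 and -0.08 between strains on HS.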
